A study of Mus musculus with 12 samples.

Results

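The genes described here are 32 genes of protein folding in the endoplasmic reticulum (ER) and of the unfolded protein response, out of 31276 genes measured in mouse intestinal mucosa. They were taken from a list of named genes, and all 32 were found among the array rows that carry exactly 1 gene symbol. They comprise 9 luminal chaperones and co-chaperones, 2 lectin chaperones, 6 protein disulfide isomerases and relatives, 4 genes of ER-associated degradation, 2 genes of the translocon, 4 stress sensors, and 5 transcription factors and regulators that act downstream of the sensors. Together they were read by 962 array rows, of which 586 lay in exon regions and 376 on exon junctions, with 5 to 78 rows per gene.

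The mice were untreated male littermates on a C57BL6/J background, killed at 4 to 6 weeks. The knockout mice were FSPCre-PPARB -/-, in which Cre is named for the promoter of fibroblast-specific protein 1 (gene S100a4) and PPARB denotes the fatty acid-activated nuclear receptor PPARβ/δ (gene Ppard). Their controls were PPARB flox/flox and were not labelled as carrying Cre. Mucosa of the colon or the ileum was laser-dissected from tissue sections, and the amplified, biotin-labelled RNA (GeneChip WT Pico Kit) was hybridised to an array of exon regions and junctions. Each of the 2 genotypes was represented by 3 arrays of colon and 3 of ileum. A source field of the labels names sectioned tumours, whereas the titles and the tissue field name mucosa. The promoter is named for fibroblasts, while the dissected mucosa holds epithelium and other cells, so a change within 1 cell type would be read in a mixture. The labels do not say that the arrays of a group came from separate mice, and each p-value is set against the spread among these arrays, part of which may be technical.

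Proteins that are secreted or inserted into membranes are threaded through the translocon into the ER, where chaperones, lectins and disulfide isomerases fold them and where failed products are sent back to the cytosol for degradation. When unfolded protein accumulates, the sensors IRE1, PERK and ATF6 release the chaperone BiP (gene Hspa5). IRE1 splices Xbp1 mRNA, PERK phosphorylates the initiation factor eIF2α and so favours translation of Atf4, and ATF6 is cut in the Golgi to free a transcription factor. The intestine has a second IRE1, IRE1β (gene Ern2), which is made in epithelia and is prominent in mucus-secreting goblet cells, whose large glycoprotein cargo places a heavy load on the ER.

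The promoters of folding genes are known for a shared element, the ER stress response element (ERSE), that is bound by ATF6 and NF-Y. It was searched on both strands as CCAAT, 9 bases of any kind, and CCACG, in the 250 bases before and 50 bases after each gene start in RefSeq (GRCm38.p6). Promoters of 27 of the 32 genes were matched by symbol, and those of Atf6, Ern2, Erp29, Hyou1 and Manf were not. The element was found in 8 of the 27, namely Calr, Canx, Creld2, Dnajc3, Hsp90b1, Hspa5, Pdia6 and Syvn1, and in 39 of all 32851 promoters (0.119%). The variant ERSE-II, searched as ATTGG, 1 base and CCACG, was found in Herpud1 and Dnajb11 and in 0.0365% of all promoters. The core TGACGTGG of the unfolded protein response element was in none of the 27 and in 0.676% of all promoters. The ATF4-C/EBP composite TGATGNAA was in Herpud1 and Trib3 and in 3.97% of all promoters. A match is a description of the letters and not of binding. The 5 windows below are shown because they hold the element in the common chaperone, in 3 of the genes whose arrays are described further on and in the degradation gene with the short variant. Each is written 5′ to 3′ on the strand of its gene, with the 2 outer parts of the element in capitals. The windows are chr2:34772015-34772089 (+) for Hspa5, chr14:118937812-118937860 (+) for Dnajc3, chr11:50325785-50325833 (-) for Canx, chr8:84847060-84847108 (-) for Calr, where the element reads in the reverse sense, and chr8:94386362-94386402 (+) for Herpud1.
Hspa5: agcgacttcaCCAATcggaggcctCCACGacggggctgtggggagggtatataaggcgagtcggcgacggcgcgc
Dnajc3: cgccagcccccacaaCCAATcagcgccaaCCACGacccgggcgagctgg
Canx: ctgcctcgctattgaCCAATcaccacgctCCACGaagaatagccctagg
Calr: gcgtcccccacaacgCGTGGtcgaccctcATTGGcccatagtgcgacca
Herpud1: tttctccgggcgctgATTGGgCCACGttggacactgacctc

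All values are log2 expression values, a gene's value being the median of its rows on an array, and values of different genes are not set against each other because probes differ in brightness. Arrays of a group correlated across genes at 0.954 to 0.979, where genes are not independent replicates. All 32 genes lay above the median of the negative control rows on each of the 12 arrays. Single negative control rows varied widely, and 14 of the 32 genes lay below their 95th percentile on every array, 16 above it on some arrays and 2 above it on all, so differences of the dimmer genes may be understated. Regional identity of the dissected tissue was seen in markers. Fabp6, the ileal bile acid-binding protein, lay at 9.87 to 11.04 on the ileum arrays and at 3.06 to 4.11 on the colon arrays. Car1, a colonic carbonic anhydrase, lay at 7.33 to 10.82 in colon and 2.55 to 3.60 in ileum. In the region of low level Fabp6 and Car1 were under the 95th percentile of the negative control rows on all 6 arrays. No size is therefore given for their differences. At a limma adjusted p under 0.05, 11 of 13 small-intestinal enterocyte markers were called higher in ileum. Of all genes 1.03% or less were called higher in each regional comparison. Among 11 colonocyte markers, those called over both genotypes included Car1 and Aqp8, lower in ileum. Ceacam20, of the same list, was called higher in ileum (0.95, limma adjusted p = 0.0205). Ppard, the targeted gene, differed between knockout and floxed mucosa by 0.15 in the colon and 0.39 in the ileum (limma adjusted p = 0.89 and 0.711), with overlapping arrays in the colon and all 3 knockout arrays above the floxed ones in the ileum, so its mean was not lower in knockout mucosa. The labels do not say which exons the floxed allele removes.

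**Figure D1:**
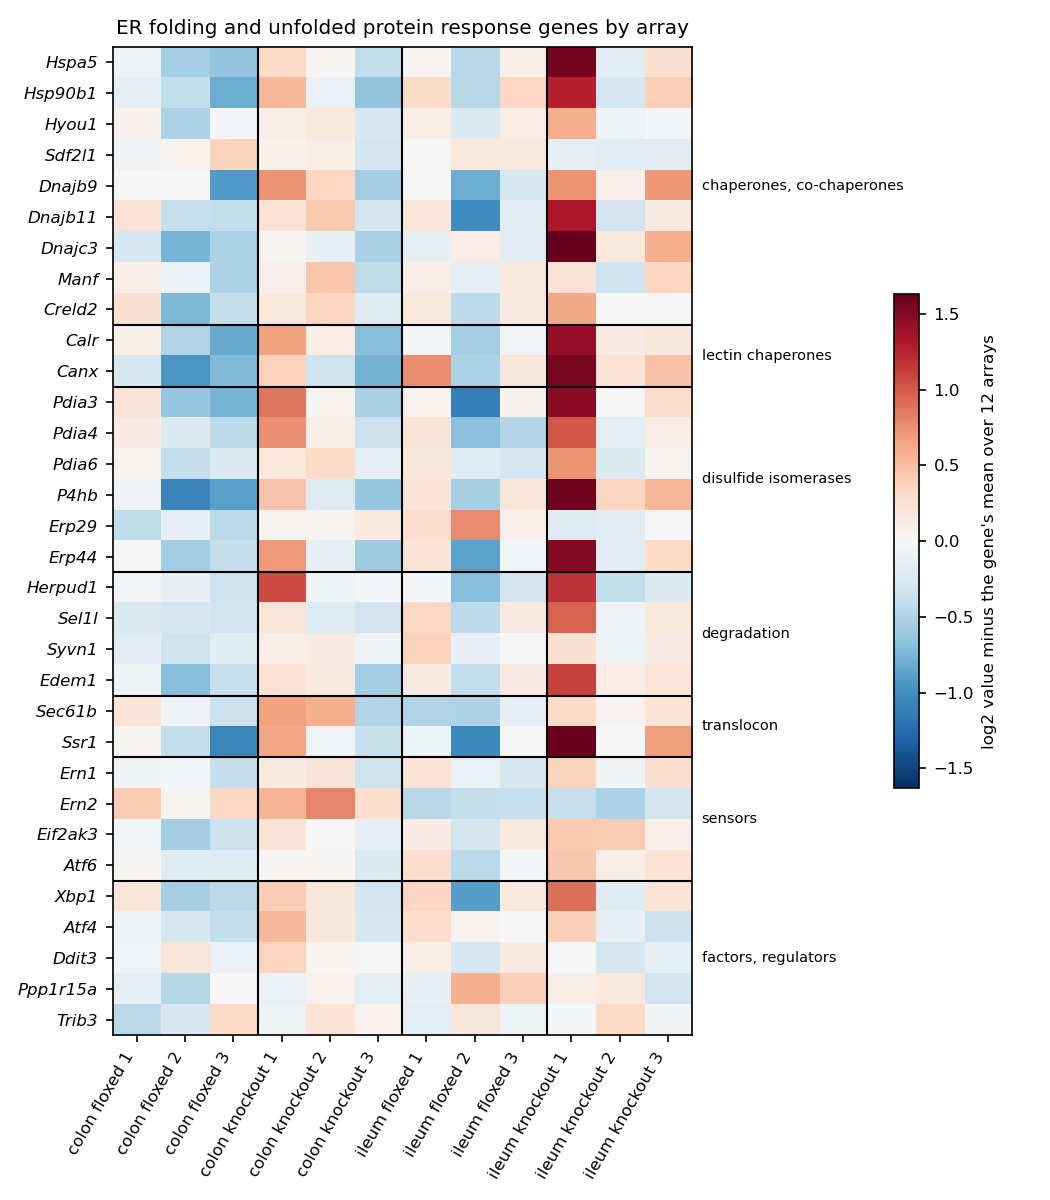
Each row is 1 of the 32 genes, grouped by role, and each column is 1 of the 12 arrays. Colour gives the log2 value minus the gene's mean over the 12 arrays. Ileum knockout 1 is the highest array for 21 genes, and the row of Ern2 divides colon from ileum.

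Ern2 was the only one of the 32 genes whose expression differed between groups at the threshold used here, an adjusted p under 0.05 in limma after Benjamini-Hochberg adjustment over all 31276 genes. It was lower in ileum than in colon. Over both genotypes 1 of the 32 genes was called, against 1.81% of all genes called in either direction (566 genes; 1.03% higher and 0.78% lower in ileum). In knockout mucosa 1 was called against 0.79%, and in floxed mucosa none against 0.588%. At an unadjusted p under 0.05 the regional comparison held 5 of the 32 genes over both genotypes (9.51% of all genes), 4 in knockout mucosa (7.36%) and 3 in floxed mucosa (6.27%). Regions did not overlap for 4 genes higher in ileum (5.12% of all genes) and 1 lower (6.12%) in floxed mucosa, and for 2 higher (5.17%) and 2 lower (6.24%) in knockout mucosa. Across all 12 arrays this left 0 higher (0.959%) and 1 lower (0.85%), the latter Ern2. Ileum means were above colon means for 27 of the 32 genes over both genotypes, with a median difference of 0.18 against -0.01 over all genes. This rested in part on single arrays, since the median was 0.09 with 23 positive without ileum knockout 1 and 0.10 with 23 positive without colon knockout 3. With the array background as a covariate 14 of the 32 were positive. Between knockout and floxed mucosa limma called 0 of 31276 genes in the colon, in the ileum, over both tissues and in the interaction of genotype and tissue, that is 0% in each. At an unadjusted p under 0.05 these held 1 of the 32 genes in the colon (4.78% of all genes), 6 in the ileum (6.65%), 8 over both tissues (10.7%) and 1 in the interaction (2.48%).

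The log2 values of Ern2 were 5.76, 5.40 and 5.69 on the 3 colon floxed arrays and 5.91, 6.15 and 5.63 on the colon knockout arrays. On the ileum arrays they were 4.90, 4.96 and 4.97 in floxed and 4.97, 4.83 and 5.05 in knockout mucosa. All 6 colon values lay above all 6 ileum values, and the 2 genotypes overlapped within each region. The ileum minus colon difference was -0.81 over both genotypes (standard error 0.11, 95% interval -1.05 to -0.57, limma adjusted p = 0.00133), a 1.75-fold lower level. It was -0.95 in knockout mucosa (adjusted p = 0.0105) and -0.67 in floxed mucosa (adjusted p = 0.11), and the interaction of -0.27 had an adjusted p of 1. The call in knockout mucosa alone was lost without colon knockout 2 (adjusted p = 0.0719), without ileum knockout 2 (0.0557) and when the other groups were left out of the fit (0.0726). Ern2 lay above the 95th percentile of the negative control rows on 2 of 12 arrays, both from knockout colon, and on none of the 6 ileum arrays, so the size of its difference may be understated.

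The single rows of Ern2, which lies at chr7:122169893-122186239 in GRCm38.p6, moved together. Of its 47 rows 45 were lower in ileum over both genotypes, with differences from -2.57 to 0.15. Adjusted over 580167 rows, 16 of them were called, 11 in exon regions and 5 on junctions, with differences from -2.04 to -0.82, where 1.14% of all rows were called. In knockout mucosa alone 3 Ern2 rows were called (0.458% of all rows) and in floxed mucosa none (0.346%). Ern1, which encodes the ubiquitous IRE1α, had 28 of 57 rows higher in ileum and 0 called, at differences from -0.63 to 0.55. Apart from Ern2, the rows of the 32 genes called over both genotypes were 2 junctions of Canx, higher in ileum by 1.09 and 1.29, and 1 junction of Pdia6, lower (-0.62). In floxed mucosa 1 exon region of Erp29 was called higher in ileum (1.23, limma adjusted p = 0.0479).

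**Figure D2:**
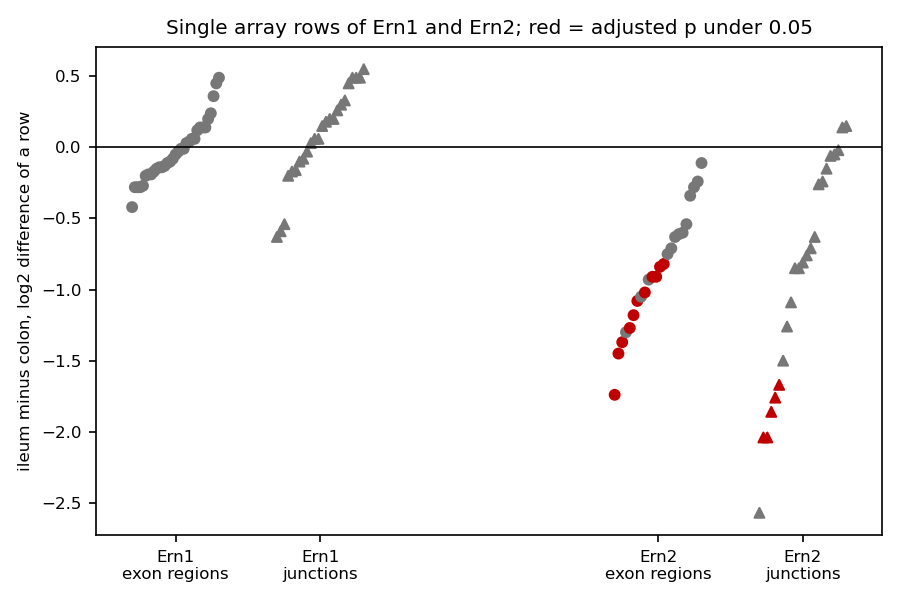
Each point is 1 array row of Ern1 or Ern2, a circle for an exon region and a triangle for a junction, ordered by its ileum minus colon log2 difference over both genotypes. Rows of Ern1 lie on both sides of 0, whereas 45 of 47 rows of Ern2 lie below it and 16 of these, in red, passed an adjusted p of 0.05.

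Markers of goblet cells differed by region in the same direction as Ern2. Of 14 such genes 12 were lower in ileum over both genotypes, with a median difference of -0.68. Of the 14 genes 4 were called, against 1.81% of all genes. Among these were Klk1 (-3.09), a tissue kallikrein, Retnlb (-3.01), a resistin-like protein of goblet cells, and Muc2 (-1.69), the gel-forming mucin. In ileum Retnlb lay above the 95th percentile of the negative control rows on 1 of 6 arrays and Klk1 on 3, so their differences may be understated. The mean log2 value of the 14 markers ran from 7.09 to 8.02 on colon floxed, 7.64 to 8.45 on colon knockout, 6.31 to 6.68 on ileum floxed and 6.88 to 7.64 on ileum knockout arrays, and the lowest value of any single marker was 2.72. Their part in the difference of Ern2 was not tested. In such mixed tissue, fewer goblet cells and less Ern2 RNA per cell cannot be told apart.

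For the other sensors the genotypes overlapped in each tissue, and the regions overlapped over both genotypes. Ern1 was at 4.44, 4.47 and 4.11 in colon floxed, 4.65, 4.70 and 4.16 in colon knockout, 4.72, 4.38 and 4.23 in ileum floxed and 4.86, 4.44 and 4.75 in ileum knockout mucosa. Its ileum minus colon difference was 0.14 (95% interval -0.16 to 0.43, limma adjusted p = 0.87), and its 4 groups overlapped. Eif2ak3, which encodes PERK, was at 4.28, 3.76 and 3.98 in colon floxed and 4.54, 4.32 and 4.19 in colon knockout mucosa, and at 4.46, 4.03 and 4.49 in ileum floxed and 4.76, 4.75 and 4.41 in ileum knockout mucosa. Knockout exceeded floxed means by 0.34 in colon and 0.32 in ileum (limma adjusted p = 0.844 and 0.714), with overlapping arrays in both. Over both tissues the difference was 0.33 (adjusted p = 0.462). Atf6 was at 4.20, 3.98 and 3.97 in colon floxed, 4.20, 4.19 and 3.94 in colon knockout, 4.46, 3.74 and 4.14 in ileum floxed and 4.61, 4.29 and 4.40 in ileum knockout mucosa. Between genotypes Atf6 differed by 0.06 in colon and 0.32 in ileum (95% interval -0.07 to 0.71), and its genotypes overlapped in both tissues. In knockout mucosa alone the 3 ileum values of Atf6 lay above the 3 colon values, and it was not called.

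**Figure D3:**
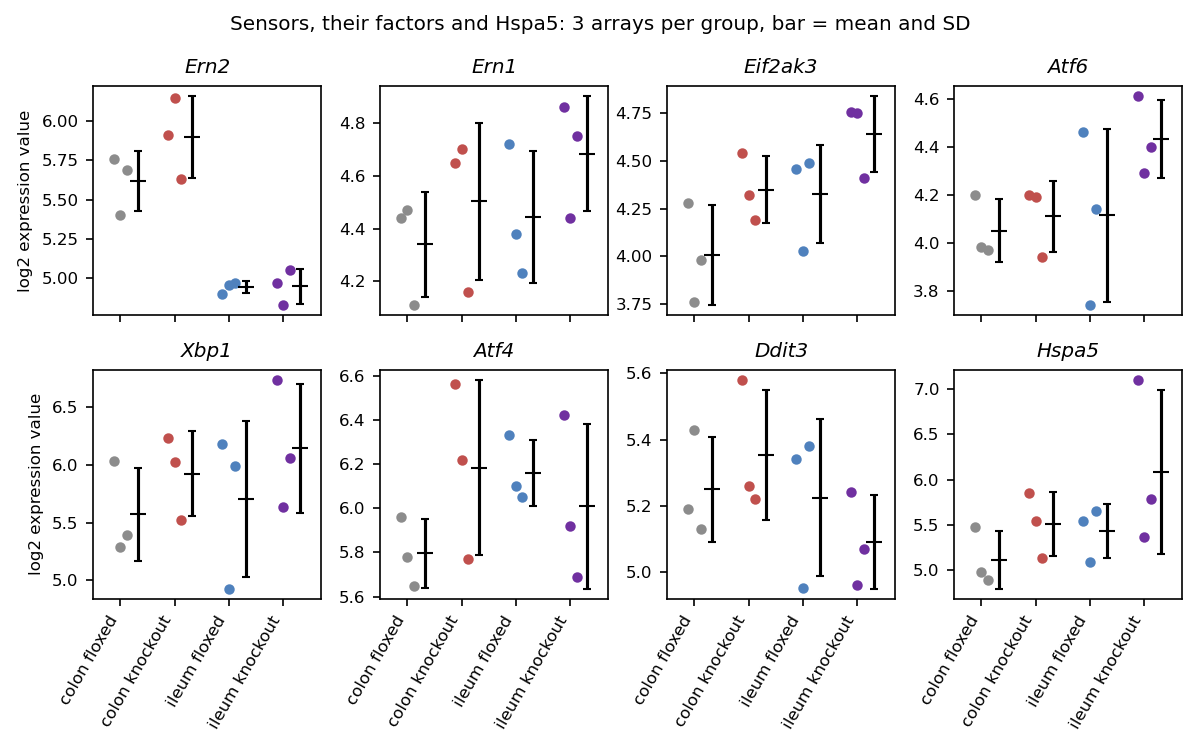
Log2 expression values of the 4 sensors, of the factors Xbp1, Atf4 and Ddit3 and of the chaperone gene Hspa5 on each array, with the mean and SD of the 3 arrays of each group beside the points. In Ern2 all 6 colon arrays lie above all 6 ileum arrays, and in the other panels the 6 colon and 6 ileum arrays overlap.

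Of 16 other sensors and regulators outside the 32 genes, Creb3l1 and Creb3l3 were called by region over both genotypes, in opposite directions. Of all genes 1.81% were called there. Creb3l1, a factor cut in the Golgi like ATF6 and known from secretory and matrix-producing cells, was lower in ileum (-1.88, limma adjusted p = 1.28e-05). Creb3l3, a relative known from liver and intestine, was higher (1.70, limma adjusted p = 2.12e-05). Creb3l1 lay above the 95th percentile of the negative control rows on 1 of 6 ileum arrays and Creb3l3 on 0 of 6 colon arrays, so these sizes may be understated. Both were called in each genotype as well, and in no genotype comparison. The other 14 were not called.

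Among the factors, Xbp1 was at 6.03, 5.29 and 5.39 in colon floxed, 6.23, 6.02 and 5.52 in colon knockout, 6.18, 4.93 and 5.99 in ileum floxed and 6.73, 5.63 and 6.06 in ileum knockout mucosa. The groups overlapped, and Xbp1 differed between genotypes by 0.35 in colon (95% interval -0.40 to 1.11) and 0.44 in ileum (-0.32 to 1.20), the latter 0.14 without ileum knockout 1. A gene value does not separate spliced from unspliced Xbp1 mRNA, because the short segment that IRE1 removes was not resolved here. Atf4, the factor whose translation PERK favours, was at 5.96, 5.78 and 5.65 in colon floxed and 6.56, 6.22 and 5.77 in colon knockout mucosa, and at 6.33, 6.10 and 6.05 in ileum floxed and 6.42, 5.92 and 5.69 in ileum knockout mucosa. Knockout minus floxed, Atf4 differed by 0.39 in colon and -0.15 in ileum (-0.35 without ileum knockout 1), with overlapping arrays in both, and the interaction of -0.53 had a limma adjusted p of 1. Ddit3, which encodes the death-associated factor CHOP, was at 5.19, 5.43 and 5.13 in colon floxed, 5.58, 5.26 and 5.22 in colon knockout, 5.34, 4.95 and 5.38 in ileum floxed and 5.24, 4.96 and 5.07 in ileum knockout mucosa. The knockout minus floxed differences of Ddit3 were 0.10 and -0.14, with arrays overlapping in both tissues. Ppp1r15a (GADD34, which returns eIF2α to its unphosphorylated form) differed by 0.14 and -0.30, and Trib3, a pseudokinase induced by ATF4 and CHOP, by 0.20 and 0.09.

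Of 19 further target genes of ATF4, 3 were called by region over both genotypes, where 1.81% of all genes were called. Nupr1, a stress-induced chromatin protein, was lower in ileum (-2.26, limma adjusted p = 0.00128), as was the lipoprotein receptor gene Vldlr (-0.45, adjusted p = 0.0435), while Slc3a2, a chain of amino acid transporters, was higher (0.67, adjusted p = 0.0174). Nupr1 lay above the 95th percentile of the negative control rows on 0 of 6 ileum arrays and Slc3a2 on 1 of 6 colon arrays. Vldlr lay above it on none of the arrays, so these sizes may be understated. The median regional difference of the 19 genes was 0.01, and 10 were positive. In the genotype comparisons 0 were called, with medians of 0.19 in the colon and 0.13 in the ileum, the latter -0.02 without ileum knockout 1.

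The luminal chaperones had higher means in knockout than in floxed mucosa for 8 of 9 genes in each tissue, with a median difference of 0.31 in the colon and 0.39 in the ileum, and none passed the test. The ileum count was 5 of 9 and the median 0.04 when ileum knockout 1 was left out. Hspa5 was at 5.48, 4.98 and 4.89 in colon floxed, 5.85, 5.55 and 5.14 in colon knockout, 5.55, 5.09 and 5.65 in ileum floxed and 7.10, 5.37 and 5.79 in ileum knockout mucosa. Its ileum knockout mean rested on the first array, and the difference of 0.66 (95% interval -0.13 to 1.44, limma adjusted p = 0.714) was 0.15 without it. Dnajc3, a BiP co-chaperone also known as an inhibitor of PERK, was at 4.88, 4.41 and 4.65 in colon floxed, 5.21, 5.04 and 4.64 in colon knockout, 5.01, 5.28 and 4.98 in ileum floxed and 6.79, 5.33 and 5.75 in ileum knockout mucosa. The 3 ileum knockout values of Dnajc3 lay above the 3 floxed values, with a difference of 0.86 (limma adjusted p = 0.711) that was 0.45 without ileum knockout 1. Between regions Dnajc3 differed by 0.72 (adjusted p = 0.154). Dnajb9, a co-chaperone that restrains IRE1, was at 3.99, 3.99 and 3.07 in colon floxed, 4.73, 4.33 and 3.42 in colon knockout, 3.99, 3.18 and 3.70 in ileum floxed and 4.73, 4.07 and 4.70 in ileum knockout mucosa. In the ileum its genotypes did not overlap, and the difference of 0.88 (limma adjusted p = 0.711) was 0.76 without ileum knockout 1. The value of Dnajb9 rested on 5 rows, of which 4 were higher in ileum knockout mucosa. It lay below the 95th percentile of the negative control rows on every array.

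Of the remaining chaperones Hsp90b1 (GRP94, the ER form of HSP90) differed between genotypes by 0.38 in the colon and 0.39 in the ileum, the latter becoming -0.01 without ileum knockout 1. Dnajb11, a BiP co-chaperone, differed by 0.30 and 0.72, and Hyou1, a large Hsp70-type nucleotide exchange factor for BiP, by 0.16 and 0.17. Creld2 and Manf, small ER proteins induced by stress, differed by 0.40 and 0.25 and by 0.21 and 0.04. Without ileum knockout 1 the ileum differences were 0.25 for Dnajb11, -0.05 for Hyou1, 0.04 for Creld2 and -0.03 for Manf. Sdf2l1, a partner of the BiP co-chaperones, was the member of this group with lower knockout means in both tissues (-0.17 and -0.28), and its ileum arrays did not overlap, at 5.96 to 5.98 in knockout against 6.13 to 6.31 in floxed mucosa. Its value rested on 5 rows, which did not share this direction. In the ileum 3 of the 5 were higher in knockout mucosa, with row differences from -0.50 to 0.23.

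Calr and Canx, the lectins that hold newly glycosylated proteins, had knockout minus floxed differences of 0.44 and 0.40 in the colon and of 0.79 and 0.61 in the ileum, the latter pair becoming 0.37 and 0.21 without ileum knockout 1. The ileum knockout arrays of Calr lay at 7.35 to 8.65, above the floxed arrays at 6.66 to 7.20. Between regions Canx had the largest positive difference of the 32 genes (0.89, 95% interval 0.29 to 1.49, limma adjusted p = 0.189), with 38 of its 41 rows higher in ileum, and the regions overlapped. It was called under quantile normalization and with the replicate block.

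The disulfide isomerases Pdia3, Pdia4, Pdia6 and P4hb and the retention factor Erp44 had higher knockout means in both tissues, at 0.30 to 0.55 in the colon and 0.28 to 0.91 in the ileum. Without ileum knockout 1 the ileum differences were 0.48 for Pdia3, 0.30 for Pdia4, 0.31 for Erp44 and 0.00 for Pdia6. Of these P4hb, which encodes the classical isomerase PDI, had ileum values of 8.74, 7.51 and 7.70 in knockout and 7.38, 6.61 and 7.35 in floxed mucosa. These did not overlap, and the difference was 0.87 (limma adjusted p = 0.711), or 0.49 without ileum knockout 1. Erp29, a relative without the isomerase active site, was at 4.00, 4.26 and 3.97 in colon floxed and 4.45, 4.46 and 4.57 in colon knockout mucosa, and at 4.69, 5.18 and 4.49 in ileum floxed and 4.20, 4.22 and 4.42 in ileum knockout mucosa. The genotypes separated in both tissues and in opposite directions, by 0.42 in the colon (limma adjusted p = 0.844) and by -0.50 in the ileum (adjusted p = 0.711). The interaction of -0.92 (95% interval -1.46 to -0.39) had the smallest p of the 32 genes, 0.00246 unadjusted, and an adjusted p of 1. Its rows did not share these directions: 8 of 16 rows were higher in colon knockout and 5 of 16 in ileum knockout mucosa. With the mean of rows in place of the median the differences were 0.05 and -0.11 and the interaction was -0.16.

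Genes of ER-associated degradation had positive genotype differences in both tissues over all arrays, with those in the ileum lower without ileum knockout 1. In the colon they were 0.49 for Herpud1 (a membrane organiser of the degradation complex), 0.17 for Sel1l (the adaptor of the HRD1 ligase), 0.32 for Edem1 (a mannosidase-like protein that marks glycoproteins) and 0.29 for Syvn1 (the ligase HRD1 itself). In the ileum they were 0.53, 0.34, 0.51 and 0.01, and without ileum knockout 1 they were 0.03, 0.04, 0.19 and -0.06. Syvn1 was at 5.70, 5.53 and 5.67 in colon floxed and 5.97, 6.00 and 5.80 in colon knockout mucosa, without overlap, and at 6.25, 5.74 and 5.86 in ileum floxed and 6.12, 5.78 and 6.00 in ileum knockout mucosa, with overlap. Its colon difference had a limma adjusted p of 0.844.

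The translocon genes had the largest median difference of the 7 roles between ileum genotypes (0.86 over 2 genes, 0.61 without ileum knockout 1). Ssr1, a subunit of the translocon-associated protein complex, was at 4.79, 3.81 and 4.87 in ileum floxed and 6.49, 4.87 and 5.54 in ileum knockout mucosa, while its colon values were 4.88, 4.47 and 3.80 in floxed and 5.49, 4.81 and 4.49 in knockout mucosa. In the ileum the highest floxed array lay just under the lowest knockout array, both at 4.87 after rounding, and the difference of 1.14 (95% interval 0.23 to 2.05, limma adjusted p = 0.711) was 0.71 without ileum knockout 1. Sec61b, a subunit of the channel, differed by 0.57 in the ileum (0.52 without that array) and by 0.32 in the colon.

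**Figure D4:**
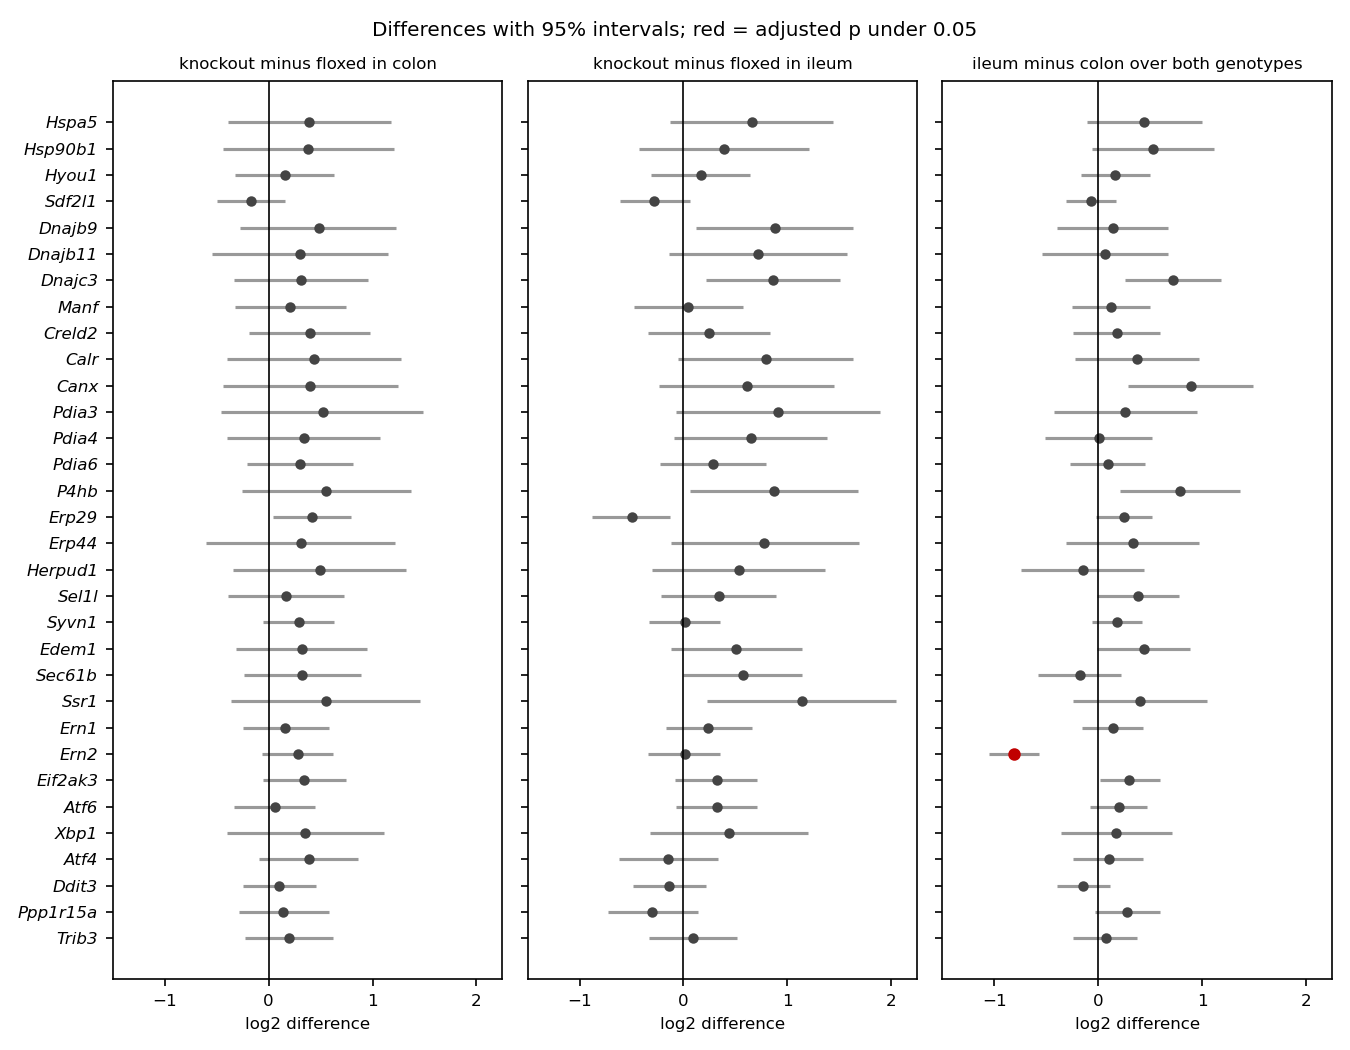
Log2 differences of the 32 genes with 95% limma intervals, for knockout minus floxed in colon (left) and in ileum (middle) and for ileum minus colon over both genotypes (right). The panels share the same horizontal scale. Of the 32 genes 31 lie to the right of 0 in the colon panel and 27 in the ileum panel with 0 called, and Ern2 is the only red point.

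Seen over all 32 genes, the differences between genotypes leaned to one side while no gene passed the test. Knockout means were higher for 31 of 32 genes in the colon, where the median difference was 0.32, and for 27 of 32 in the ileum, where it was 0.36. With the mean of rows in place of the median, 28 were higher in the colon (median 0.22) and 26 in the ileum (0.30). Most single rows of Manf, Trib3, Ppp1r15a and Ddit3 were lower in colon knockout mucosa, although their gene values were higher. Over both tissues the median difference was 0.36 with 28 positive, and the interaction had a median of 0.08 with 20 positive. Over all genes the median was -0.01 in colon and in ileum, and 49% and 48.7% of genes had a higher knockout mean. Over the genes above the median brightness it was 0.08 and 0.04, with 62.3% and 55.4% higher. In the colon 2 of the 32 genes had knockout arrays wholly above the floxed ones (4.04% of all genes) and none wholly below (6.18%). In the ileum 6 had them above (5.06% of all genes) and 2 below (5.95%). The downstream factors and regulators did not share the lean in the ileum, where 2 of 5 were positive and the median was -0.14.

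The lean moved with the arrays. Ileum knockout 1 was the highest of the 12 arrays for 21 of the 32 genes (65.6%), against 14.4% of all genes and 20.7% of the genes above the median brightness. Without it the median ileum difference of the 32 genes was 0.15, and 22 were positive. The ileum median was also 0.20 without ileum floxed 2 and 0.59 without ileum knockout 2. In the colon the median of 0.32 became 0.18 with 29 positive without colon knockout 1 and 0.53 without colon knockout 3. The mean log2 value of the 32 genes was 6.05 on ileum knockout 1 and 5.23 and 5.44 on the other ileum knockout arrays. It was 4.92 to 5.40 on ileum floxed, 4.97 to 5.64 on colon knockout and 4.90 to 5.27 on colon floxed arrays. The background of an array, measured as the mean log2 value of control rows of 15 to 25 G or C bases, ran from 6.01 to 6.38 on ileum knockout, 6.60 to 7.06 on ileum floxed, 6.32 to 6.76 on colon knockout and 6.60 to 6.97 on colon floxed arrays. Ileum knockout 1 had the lowest background, and arrays with a lower background tended to have a higher mean of the 32 genes. With the background as a covariate the median genotype difference became -0.09 in the colon and -0.35 in the ileum, and the sign changed for 22 and 25 of the 32 genes, with 0 called. The background ranges of the ileum genotypes did not overlap, so the covariate value there extends a trend within groups across that gap. In the colon the background ranges overlapped through colon knockout 3 alone, at 6.76. The fit used the same background slope for all 12 arrays, so its colon and ileum values are not separate findings. The share of the lean that belongs to the background was not tested.

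Several lists of markers of other cells also had higher knockout means, in part through ileum knockout 1. The exocrine pancreas list had negative median differences in both tissues, and the colonocyte list in the colon. Means of all 7 measured Paneth cell markers were higher in ileum knockout mucosa, with a median difference of 1.21, and the mean of the list ran from 4.79 to 7.07 on ileum knockout and from 4.48 to 5.24 on ileum floxed arrays, its lowest single value being 3.13. Without ileum knockout 1 all 7 were still positive and the median was 0.33. The 7 include Nupr1, which was lower in ileum than in colon (-2.26, limma adjusted p = 0.00128). It lay above the 95th percentile of the negative control rows on 0 of 6 ileum arrays, so it is a doubtful Paneth cell marker here. The 8 smooth muscle markers were all higher (median 0.61), with means of 5.49 to 6.80 against 4.90 to 5.72 and a lowest single value of 3.46, and the median was 0.32 without ileum knockout 1. Goblet cell markers were higher in knockout mucosa for 14 of 14 genes in the colon (median 0.57) and 13 of 14 in the ileum (median 0.46), and pan-epithelial markers for 8 of 10 (0.48) and 9 of 10 (0.50). The ileum medians of goblet and pan-epithelial markers were 0.31 and 0.27 without ileum knockout 1, and without ileum floxed 2 that of the pan-epithelial markers was 0.17. Plasma cell markers, another source of secretory ER, were higher for 6 of 12 in the colon and 7 of 12 in the ileum, with medians of -0.05 and 0.07. None of these markers was called between genotypes, and their part in the lean of the folding genes was not tested.

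**Figure D5:**
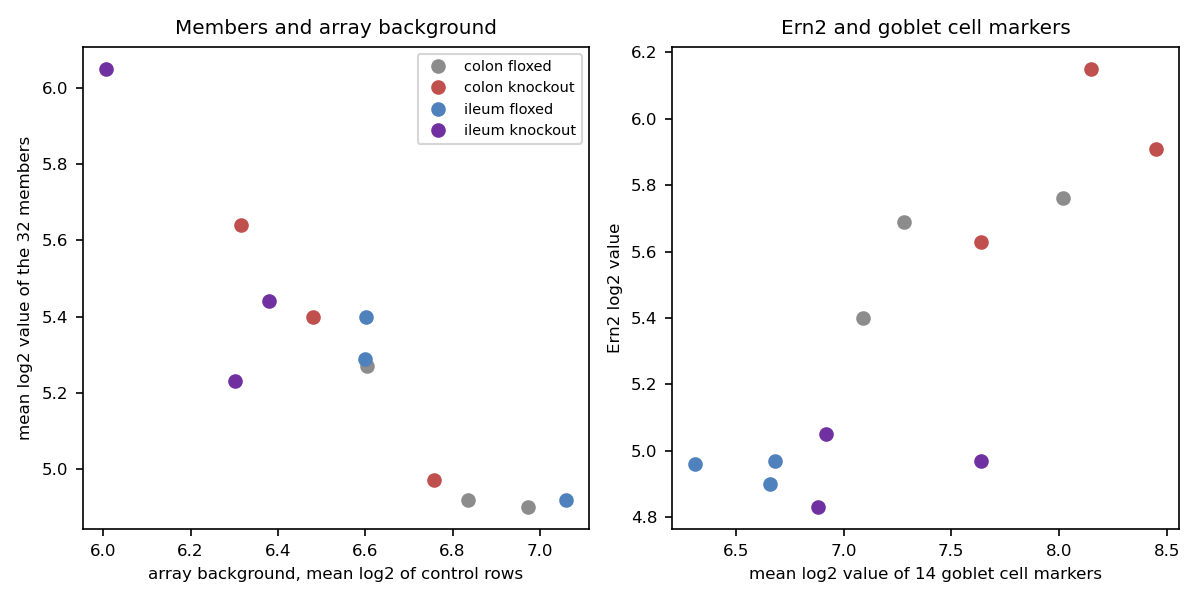
Left, the mean log2 value of the 32 genes against the array background for the 12 arrays. Right, the log2 value of Ern2 against the mean log2 value of 14 goblet cell markers. Ileum knockout 1 stands at the upper left of the left panel with a background of 6.01 and a mean of 6.05, and the ileum arrays in the right panel lie at an Ern2 value of 5.05 or less.

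Neighbouring steps of the secretory pathway had mostly higher knockout means over all arrays. Between ileum genotypes the differences were positive for 14 of 17 other folding enzymes (median 0.30), 17 of 18 other degradation genes (0.34), 15 of 15 other translocon and signal peptide genes (0.48), 14 of 14 N-glycosylation genes (0.61) and 15 of 16 ER to Golgi transport genes (0.42). Without ileum knockout 1 these became 9 of 17 (0.03), 12 of 18 (0.09), 13 of 15 (0.12), 14 of 14 (0.29) and 14 of 16 (0.17). In the colon the counts were 15 of 17, 16 of 18, 14 of 15, 13 of 14 and 15 of 16, with medians of 0.26 to 0.41, and without colon knockout 1 the median of the translocon and signal peptide genes was 0.10 with 10 of 15 positive. None of these genes was called in either tissue. The genes of smallest p in the ileum were Sil1, a nucleotide exchange factor for BiP (0.75), Ube2j2, an ER ubiquitin-conjugating enzyme (0.55), Sec61a1, the channel subunit (0.47), Stt3b, a catalytic oligosaccharyltransferase subunit (0.87), and Sec13, a coat protein of transport vesicles (0.85). Between regions 3 were called over both genotypes, where 1.81% of all genes were called. Sil1 (-0.96, limma adjusted p = 0.0117) and the isomerase Pdia5 (-0.55, adjusted p = 0.0333) were lower in ileum, and Marchf6, an ER ubiquitin ligase, was higher (0.77, adjusted p = 0.0393). None of the 3 lay above the 95th percentile of the negative control rows on any array, so these sizes may be understated.

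Genes with and without an ERSE match were set side by side as a description. Over both genotypes all 8 genes with a match had a higher ileum than colon mean, with a median difference of 0.41, and 15 of the 19 genes with a promoter and no match did, with a median of 0.14. Without ileum knockout 1 these were 7 of 8 (0.18) and 12 of 19 (0.08). Between ileum genotypes the medians were 0.50 and 0.51, or 0.09 and 0.19 without that array, and in the colon 0.39 and 0.32. Within the 8, the regional difference ran from 0.09 for Pdia6 to 0.89 for Canx.

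The 32 genes also differed in how much they varied within groups. The residual SD over the 4 groups ran from 0.17 to 0.67, with a median of 0.38. Ern2, Syvn1 and Sdf2l1 had the lowest value, and Pdia3 the highest, its 12 values running from 5.40 on ileum floxed 2 to 7.97 on ileum knockout 1. The regional difference of P4hb (0.79) was near in size to that of Ern2 and had a standard error of 0.26 and a limma adjusted p of 0.252, where the standard error of Ern2 was 0.11. P4hb was called under quantile normalization and with the replicate block. For Pdia3 the 95% interval of the ileum genotype difference ran from -0.07 to 1.89.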

How the data were processed

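RNA of 12 samples was measured on 12 arrays. The authors deposited log2 expression values per exon region or junction, and RMA and Partek are named per the submitters' processing notes, with no version, role or order given. Of 725678 rows 580167 carried exactly 1 symbol in the platform annotation, and a gene was given the median of those rows on each array. No further normalization or detection filter was applied, and 0 sample columns were left unused. Group means were estimated from the 12 arrays in limma 3.58.1 (lmFit and eBayes, R 4.3.3), with 8 residual and 4.72 prior degrees of freedom. P-values were two-sided and adjusted after Benjamini and Hochberg across the 31276 genes, or across 580167 rows where single rows were tested, and the fit was checked on simulated data. Intervals are 95% intervals of that fit. With arrays, precision depends on how many there are.

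The 32 genes and the other lists were chosen with earlier results of these data known. Values of every array are given for genes called between regions over both genotypes, for the 4 of smallest p in each genotype comparison by tissue, and for Hspa5, Xbp1, Atf4, Ddit3 and the 4 sensors. P4hb was added after its values were seen. Of other lists up to 3 called genes, or the gene of smallest p, are named. Of the 226 genes of the other lists 9 were not analysed here, and Nupr1 stands in both the ATF4 and the Paneth lists. Exocrine pancreas, fibroblast, leukocyte and colonocyte lists had median genotype differences of -0.13, 0.17, 0.16 and -0.14 in the colon and -0.09, 0.27, 0.09 and 0.03 in the ileum, with 0 called. Promoters are from RefSeq tables of GRCm38.p6, and the build behind the array design is not stated. Alternatives were the mean of rows, exon-region rows only, quantile normalization, a brightness filter, trend and robust variance, the array background as a covariate, only the compared groups, a replicate block and leaving out each array. For genotype comparisons the replicate block was the array number. For regional comparisons and the interaction it treated same-numbered colon and ileum arrays of a genotype as 1 source, which the labels do not state. Leaving out ileum knockout 1 and colon floxed 2 together, and leaving out each array for the lists, were chosen after seeing the data.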

Additional observations from a re-analysis of the deposited data

How the results depend on the processing

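Of the 32 genes 0 were called in any genotype comparison or in the interaction under any alternative. For ileum against colon over both genotypes Ern2 was called under all 20 alternatives (limma adjusted p from 0.000282 to 0.00751, difference from -0.97 to -0.75). The count of called genes there was 3 under quantile normalization and 3 with the replicate block (Canx, Ern2 and P4hb in both), where 2.23% and 2.46% of all genes were called against 1.81%, and 1 to 2 when 1 array was left out, Dnajc3 joining without ileum knockout 2 (adjusted p = 0.0426). In knockout mucosa the count of 1 became 0 with only the compared groups and 2 with the replicate block (Canx and Ern2; 0.576% and 1.06% of all genes against 0.79%), and it was 0 to 1 when 1 array was left out. In floxed mucosa the count of 0 became 1 with exon-region rows (Ern2, adjusted p = 0.0357), 1 under quantile normalization (Ern2, 0.0309) and 1 with the background covariate (Erp29, 0.0309), where 0.672%, 0.812% and 1.07% of all genes were called against 0.588%. The cause was not tested. The median genotype difference of the 32 genes kept its sign under the alternatives run except with the background covariate. With it the medians were -0.09 in the colon, -0.35 in the ileum and -0.24 over both tissues. Ileum genotypes did not overlap in background, so the ileum value extends a trend within groups across that gap. When 1 array was left out, the lowest and highest medians were 0.18 and 0.53 in colon, and 0.15 and 0.59 in ileum. The median interaction of 0.08 was -0.23 with that covariate and ran from -0.13 (without ileum knockout 1) to 0.33 when 1 array was left out. The median regional difference of 0.18 over both genotypes was -0.03 with the covariate and ran from 0.09 to 0.24 when 1 array was left out. Leaving out ileum knockout 1 and colon floxed 2 together gave genotype medians of 0.23 and 0.15.

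Same-numbered arrays did not deviate together throughout: correlations of their deviations ran from -0.175 to 0.381 between genotypes of a tissue and from -0.128 to 0.531 between tissues of a genotype, with 4 of 6 pairs over 0.1 in each. Different-numbered arrays spanned -0.498 to 0.29 for genotypes and -0.512 to 0.406 for tissues. The numbers are not taken as pairs in the main fit, and whether they mark shared sources was not tested. For the 32 genes the replicate block changed no call beyond those above. Over all genes, that block raised the count at an unadjusted p under 0.05 to 2350 for colon genotypes (1494 without it). For ileum genotypes the count became 3344 (2079 without it), with 0 called in either tissue. Dim signal limits what can be seen, since 14 of the 32 genes lay under the 95th percentile of negative control rows on every array.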
